A study of Mus musculus with 2 samples.

Results

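BMP and TGF-beta signals and their antagonists were followed here through the single cells of the embryonic mouse eye. They are 10 of the 31053 genes in the deposited counts, chosen by symbol: the bone morphogenetic protein (BMP) ligands *Bmp2*, *Bmp4* and *Bmp7*, the TGF-beta ligands *Tgfb1*, *Tgfb2* and *Tgfb3*, the related ligand *Gdf11*, and the antagonists *Wfikkn2*, *Nbl1* and *Grem1*. All 10 were found in the gene list of both libraries. Cells came from e13.5 eye cups of 2 genotypes, measured as 1 library per genotype on the 10x Genomics 3' platform, in which every captured transcript carries a unique molecular identifier (UMI). The control was *Myrf fl/fl*, with both *Myrf* alleles flanked by loxP sites and no Cre named in the labels, and the mutant was *Rx>cre Myrf fl/fl*, so both groups share the floxed alleles and only the mutant carries the transgene. Each library pooled 3 samples, and cornea, lens and optic nerve had been dissected away. *Rx>cre* acts in the early eye field, which gives rise to retina and retinal pigment epithelium (RPE), and not in mesenchyme, vessels or blood; loss of *Myrf* in the RPE, the presence of Cre and the preparation of each library cannot be told apart in this design.

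BMP and TGF-beta ligands are secreted dimers that bring together type I and type II receptor kinases, which phosphorylate Smad proteins that enter the nucleus. BMPs signal mainly through Smad1, Smad5 and Smad9, and TGF-betas, activins and *Gdf11* through Smad2 and Smad3, while antagonists such as *Nbl1* and *Grem1* bind ligands outside the cell and keep them from their receptors. In the eye, BMPs help to set up the RPE and the dorsal retina, and TGF-betas act on the neural crest mesenchyme around the optic cup.

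The deposited counts held 6039 barcodes with 63483835 UMIs in the control and 6754 barcodes with 75228861 UMIs in the mutant, and 5451 and 6309 cells were kept. Clusters were given names ending in -like from marker lists. They gave 13 named classes and 7 clusters of periocular mesenchyme, which are compared one by one because the leading genes of 2 of them included a marker of another class. Unnamed clusters held 13.6% of control and 10.4% of mutant cells. The libraries shared 72 barcodes, 60 of them with UMI totals within 1.25 times of each other, of which 1 lay among the control RPE-like cells and 0 among the mutant ones. Without the shared barcodes, as with them, 2 of 6 members compared were past 2-fold in RPE-like cells. Of all 9702 genes compared without them, 4.96% were past 2-fold. Cells of 1 library are not replicates, so no test was made. The 95% intervals cover counting error only: exact Poisson for a level, Clopper-Pearson for a share of cells and conditional binomial for a ratio. A level in CPM is a gene's UMIs per 1000000 UMIs of the whole class. A ratio is the log2 of the mutant level over that of the control, after adding 1 UMI to the sum of each. A gene was counted as past 2-fold where it had at least 20 UMIs over both libraries in a class and differed at least 2-fold.

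**Figure D1:**
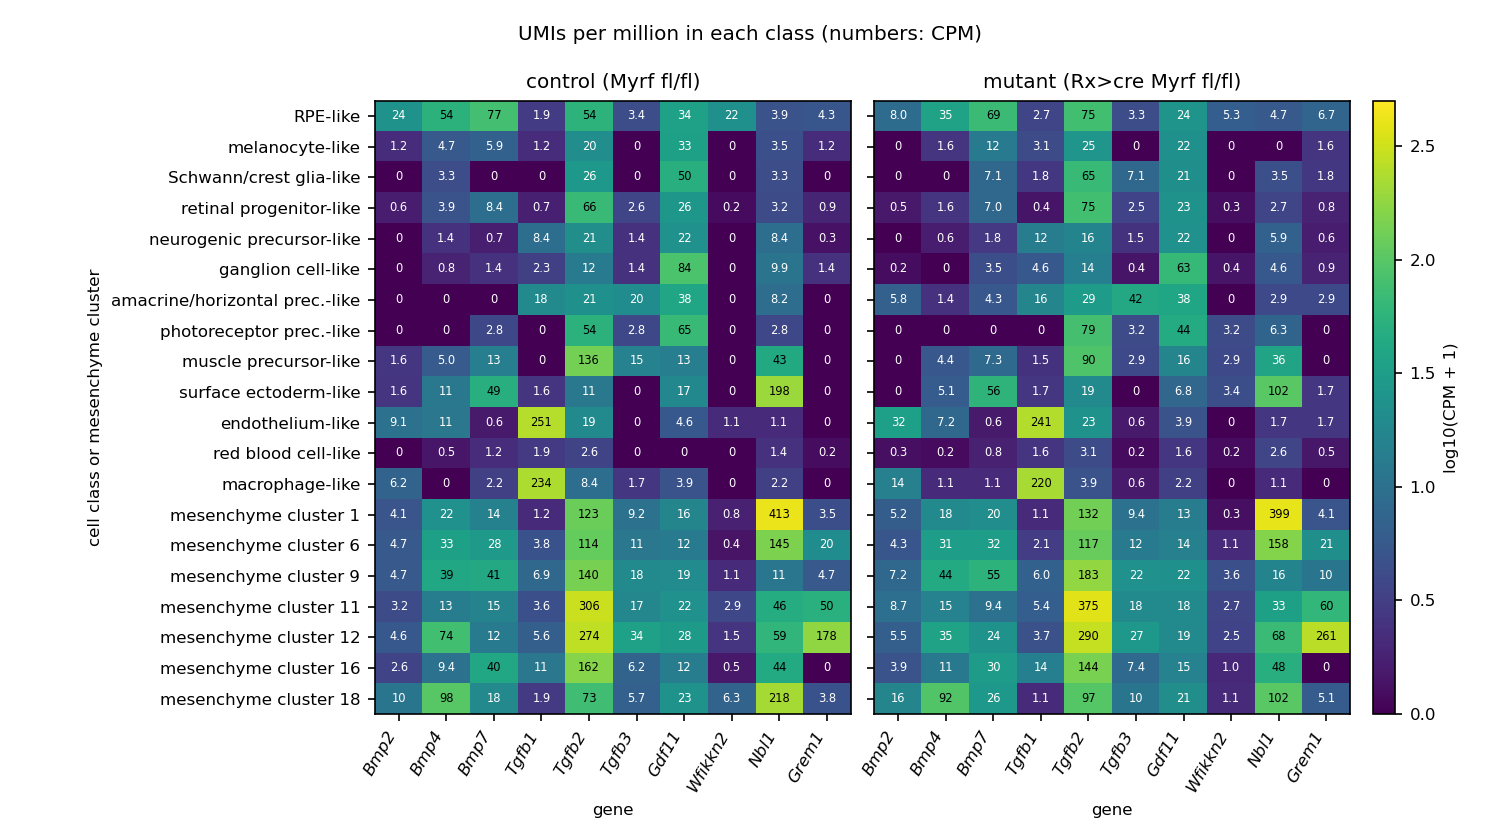
Level of each gene (columns) in each cell class or mesenchyme cluster (rows), as log10(CPM + 1) by colour and CPM by number, in the control (left) and the mutant (right) library. *Bmp2* led in RPE-like cells of the control and endothelium-like cells of the mutant. *Wfikkn2* led in RPE-like cells, *Tgfb1* in endothelium-like and macrophage-like cells, *Nbl1* in mesenchyme cluster 1 and *Grem1* in mesenchyme cluster 12, in both libraries. The mutant lead of *Wfikkn2* rests on 8 UMIs, with an interval that overlaps that of the next, mesenchyme cluster 9.

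In RPE-like cells, *Bmp2* and *Wfikkn2* were lower in the mutant library than in the control. These cells numbered 255 in the control and 154 in the mutant, which is 4.68% and 2.44% of kept cells, with medians of 3383 and 3738 UMIs per cell. *Myrf* itself, the deleted gene, was counted 155 times in the control and 30 times in the mutant (log2 ratio −1.86, −2.51 to −1.33). Enough UMIs for a comparison were found for 6 members, and 2 of these 6, *Bmp2* and *Wfikkn2*, were at least 2-fold lower in the mutant, where 3.17% of all 9710 genes compared were at least 2-fold lower. None was at least 2-fold higher, against 1.85% of all genes. The median log2 ratio of the 6 was −0.55 and that of all genes −0.035.

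*Bmp2*, a BMP ligand on chromosome 2 (133552159 to 133562885, plus strand, GRCm38), was counted 49 times in control RPE-like cells, a level of 23.6 CPM (17.5 to 31.2), and 12 UMIs in mutant ones, 8.02 CPM (4.15 to 14.0). The intervals did not overlap, and the log2 ratio was −1.47 (−2.60 to −0.63), or 2.77-fold lower. A *Bmp2* UMI was found in 40 of 255 control cells (15.7%, 11.4 to 20.7) and in 12 of 154 mutant cells (7.79%, 4.09 to 13.2). Red blood cell-like cells, taken as a class that should lack the gene, had a *Bmp2* UMI in 0% of 210 control cells, which allows a share of up to 1.43%, and in 0.409% of mutant cells, at medians of 22426 and 22706 UMIs per cell. Most of those UMIs came from red blood cell markers, at 850979 and 817273 CPM in that class, so its depth for other genes was far lower. After every cell was thinned to 3000 UMIs, which kept 131 control and 80 mutant RPE-like cells, the shares were 4.58% (1.7 to 9.70) and 3.75% (0.780 to 10.6), from 6 and 3 UMIs, and no difference was detectable at that depth.

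*Wfikkn2* encodes a secreted protein with follistatin, Kunitz and other domains that binds Gdf8 and *Gdf11*, and lies on chromosome 11 (94235956 to 94246005, minus strand). RPE-like cells held 52.9% of its control UMIs and 12.7% of its mutant ones. Its level there was 21.7 CPM (15.8 to 29.0) from 45 UMIs in the control and 5.35 CPM (2.31 to 10.5) from 8 UMIs in the mutant. The log2 ratio was −1.88 (−3.32 to −0.92), or 3.68-fold lower. The share of RPE-like cells with a *Wfikkn2* UMI was 12.5% (8.74 to 17.3) in control eyes and 5.19% (2.27 to 9.98) in mutant eyes, against 0% and 0.409% of red blood cell-like cells. Thinned to 3000 UMIs, control cells showed it in 8.40% (4.27 to 14.5) and mutant cells in 0% (0 to 4.51), from 11 and 0 UMIs.

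Neither result could be compared under a stricter limit on mitochondrial UMIs. With that limit at 5% in place of 15% and the cells clustered anew, 118 control and 85 mutant RPE-like cells were left. *Bmp2* then had 13 and 4 UMIs, 22.1 and 5.14 CPM, and *Wfikkn2* 4 and 2 UMIs, 6.79 and 2.57 CPM, so that neither reached the 20 UMIs needed for a comparison. The control level of *Bmp2* was close to its 23.6 CPM at the 15% limit. That of *Wfikkn2*, 6.79 CPM (1.85 to 17.4), was below its 21.7 CPM at 15%, so this control level depends on which cells were kept. No cell held more than 11.1% of the control or 12.5% of the mutant UMIs of *Bmp2* or *Wfikkn2*.

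**Figure D2:**
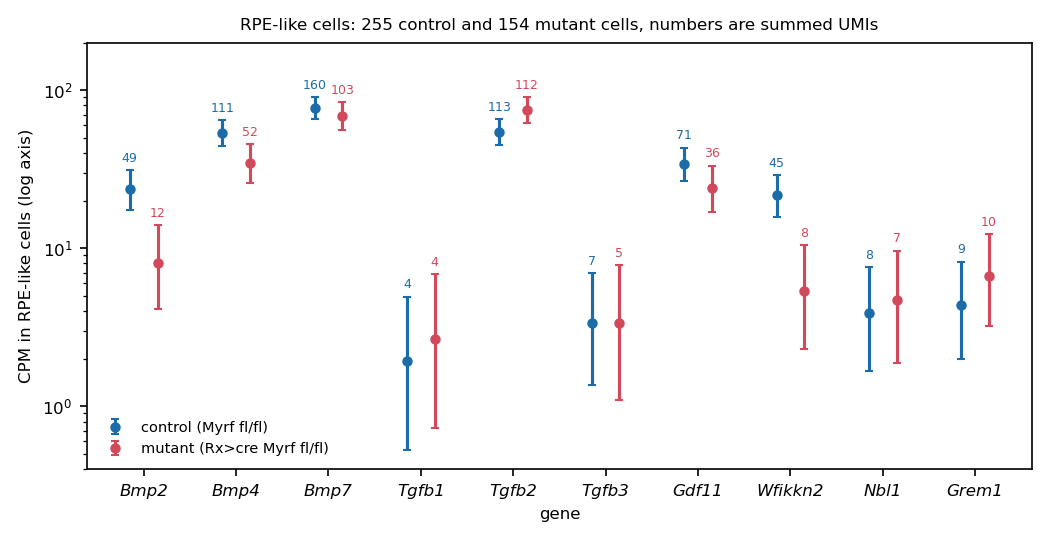
Level of each gene in RPE-like cells (CPM, log axis), control in blue and mutant in red, with exact 95% Poisson intervals and the summed UMIs above each point. *Bmp2* (49 and 12 UMIs) and *Wfikkn2* (45 and 8 UMIs) are the genes whose intervals lie apart.

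The other BMP ligands did not reach a 2-fold difference in these cells. *Bmp4*, a BMP ligand known for its part in dorsal eye patterning (chromosome 14, 46383520 to 46390669, minus strand), had 111 UMIs in control and 52 in mutant RPE-like cells. These were 53.5 CPM (44.0 to 64.4) and 34.8 CPM (26.0 to 45.6), with a log2 ratio of −0.61 (−1.13 to −0.13). The 60 control cells with a *Bmp4* UMI held 1.85 each on average, and the 25 such mutant cells 2.08. The same means were alike for *Bmp7* (1.67 and 1.81) and *Tgfb2* (1.57 and 2.29). *Bmp7*, a ligand that eye development depends on (chromosome 2, 172868012 to 172940321, minus strand), had 160 and 103 UMIs, 77.1 CPM (65.6 to 90.0) and 68.9 CPM (56.2 to 83.5). Its log2 ratio of −0.16 had an interval from −0.53 to 0.20, so a difference of either sign lies within counting error. Cells with a *Bmp7* UMI made up 37.6% and 37.0% of the RPE-like class, against 1.90% and 1.64% of red blood cell-like cells.

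*Tgfb2* was the one compared member with a higher level in the mutant RPE-like cells. It had 113 and 112 UMIs, 54.5 CPM (44.9 to 65.5) and 74.9 CPM (61.7 to 90.1), and the log2 ratio was 0.46 (0.069 to 0.85). With the mitochondrial limit of 5% the ratio was −0.21, so the direction depends on which cells were kept. *Gdf11* had 71 and 36 UMIs, 34.2 CPM (26.7 to 43.2) and 24.1 CPM (16.9 to 33.3), with a log2 ratio of −0.49 and an interval (−1.13 to 0.090) that spans 0. The remaining 4 members had too few UMIs for a comparison: *Tgfb1* with 4 and 4, *Tgfb3* with 7 and 5, *Nbl1* with 8 and 7, and *Grem1* with 9 and 10. A single cell gave 55.6% of the control and 70.0% of the mutant UMIs of *Grem1*.

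Marker lists of other cell types did not all stay level in the RPE-like cells. The summed level of 12 RPE markers was 13874 CPM in the control and 9765 CPM in the mutant, with 10 of the 12 lower. The list of 11 ganglion cell markers was at 217 and 61.5 CPM with 1 marker at 0 in the mutant, the 8 neurogenic precursor markers at 262 and 528 CPM with none at 0, and the 10 periocular mesenchyme markers at 123 and 148 CPM with none at 0. In their own classes these 3 lists stood at 11670.2, 14083 and 3596 CPM in the control. Of the other lists, retinal progenitor markers were at 797 and 563 CPM (7 of 8 lower, none at 0), surface ectoderm markers at 2191 and 1558 CPM (5 of 8 lower, 1 and 3 at 0) and red blood cell markers at 939.9 and 1388 CPM (2 of 8 lower, 1 at 0 in each). In their own classes these lists stood at 5117, 2364 and 850979 CPM in the control. The surface ectoderm list was thus nearly as high in control RPE-like cells as in its own class. *Krt18*, on that list, was among the leading genes of the RPE-like cluster. The remaining 12 lists lay between 2.41 and 596 CPM in the control and between 4.68 and 529 CPM in the mutant. The part of any list in the ratios of the members was not tested.

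*Bmp2* had another order of classes in the mutant. In the control, RPE-like cells led at 23.6 CPM with an interval apart from that of the next, mesenchyme cluster 18 at 10.1 CPM (5.76 to 16.4), and endothelium-like cells stood at 9.12 CPM (5.21 to 14.8). In the mutant, endothelium-like cells led at 32.2 CPM (24.5 to 41.6), from 58 UMIs where the control had 16, a log2 ratio of 1.76 (1.00 to 2.72). These UMIs came from 14 of the 142 control and 31 of the 149 mutant cells, and the ratio without the cell with most UMIs in each library was 1.78. Of 8658 genes compared in endothelium-like cells, 0.762% were at least 2-fold higher.

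Macrophage-like cells had 11 and 25 *Bmp2* UMIs, 6.15 and 14.0 CPM, a log2 ratio of 1.12 (0.11 to 2.36), where 2.22% of genes were at least 2-fold higher. These UMIs came from 8 of the 123 control and 12 of the 137 mutant cells, shares whose intervals overlap. A single cell gave 27.3% of the control and 20% of the mutant UMIs, and the ratio without these cells was 1.23. The leading genes of this class included *S100a8*, *S100a9* and *Cpa3* beside *C1qb*, and its macrophage markers stood at 11206 and 15059 CPM. Whether both libraries held the same mix of cells there was not tested. Mesenchyme cluster 11, with *Col9a3* and *Sox9* among its leading genes, had 9 and 26, 3.21 and 8.73 CPM, a log2 ratio of 1.35 (0.31 to 2.72), where 0.506% of genes were at least 2-fold higher. In the 10 classes and clusters with enough *Bmp2* UMIs, 7 ratios were above 0 and 3 below, with a median of 0.44. As a share of all *Bmp2* UMIs in kept cells, the RPE-like cells held 24.9% in the control and 4.15% in the mutant, a value that also carries the lower number of these cells. Over the 34 points of class and library with at least 30 cells, the genes most like *Bmp2* by Pearson's r of log2(CPM + 1) were *Fzd4* (0.78), *Clec2d* (0.77) and *Trim12c* (0.77). These points share their library and differ in depth, here and for each likeness given below.

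**Figure D3:**
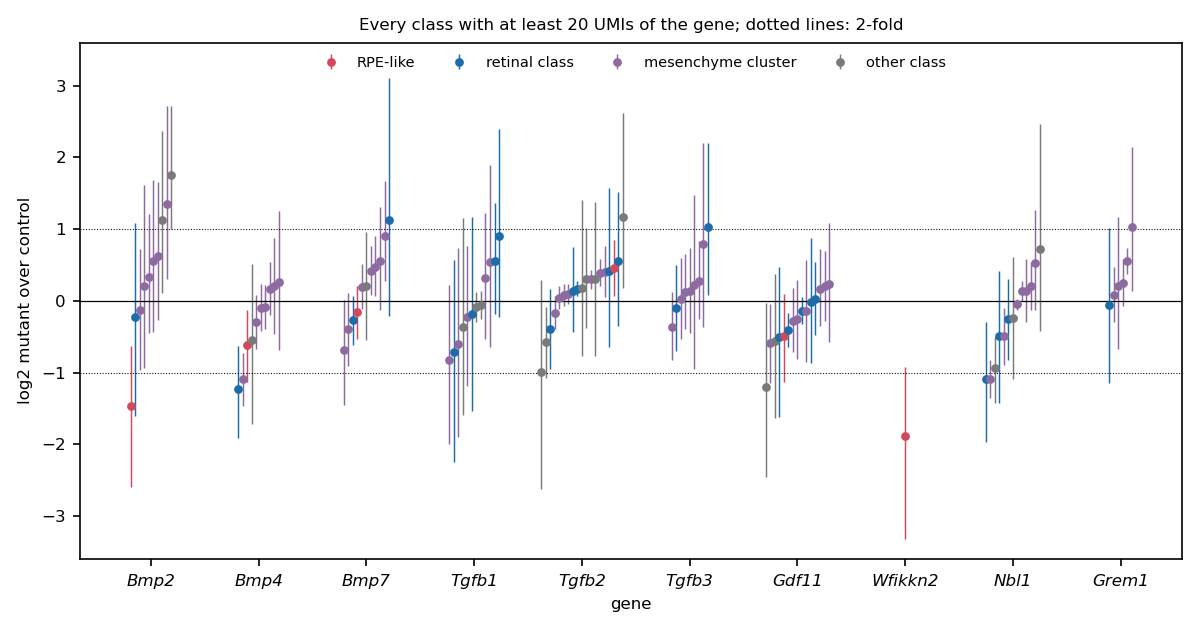
Log2 ratio of mutant over control for each gene in every class or mesenchyme cluster with at least 20 of its UMIs, sorted by value within a gene, with 95% conditional binomial intervals. For *Bmp2* the RPE-like cells (red) lie at −1.47 and the endothelium-like cells at 1.76, and *Wfikkn2* had 20 UMIs in no other of the classes and clusters shown.

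*Bmp4* was highest in the control in mesenchyme clusters 18 and 12, not in mesenchyme as a whole. Summed over all mesenchyme clusters, its control level was 35.1 CPM (32.7 to 37.7), below the 53.5 CPM (44.0 to 64.4) of RPE-like cells. In the control it stood at 98.2 CPM (83.4 to 115) in cluster 18, led by *Osr2* and *Foxl2*, and at 74.5 CPM (62.9 to 87.5) in cluster 12, with *Meox1* and *Scx* among its leading genes, intervals that overlap. RPE-like cells came next, before mesenchyme cluster 9, with *Aldh1a2* and *Six2* among its 10 leading genes, at 39.4 CPM (32.3 to 47.6). Cluster 18 was at 92.0 CPM (78.3 to 107) in the mutant, within counting error of the control. Cluster 12 was at 34.9 CPM (28.7 to 41.9) in the mutant, from 113 UMIs in 284 cells against 147 UMIs in 156 control cells. That is a log2 ratio of −1.09 (−1.46 to −0.73), in a cluster where 1.27% of genes were at least 2-fold lower, and it was −1.60 after thinning to 3000 UMIs. The genes most like *Bmp4* were *Gm15222* (r = 0.92), *Timp1* (0.90) and *Ogn* (0.87).

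Mesenchyme cluster 12 differed in other members too. *Grem1*, an antagonist of BMPs with a cystine knot (chromosome 2, 113746164 to 113758646, minus strand), had 352 and 846 UMIs there, 178 CPM (160.2 to 198) and 261 CPM (244 to 279), or 0.55 (0.37 to 0.73) on the log2 scale. *Bmp7* was counted 24 and 76 times, 12.2 and 23.5 CPM, a log2 ratio of 0.91 (0.27 to 1.67). *Gdf11* was at 28.4 and 18.8 CPM, a log2 ratio of −0.59 (−1.14 to −0.042), while *Tgfb2* (274 and 290.4 CPM, 0.082 on the log2 scale) and *Nbl1* (58.8 and 67.6 CPM, 0.20) had intervals that span 0. The median log2 ratio of the 9 members compared in this cluster was 0.082 and that of all genes −0.048. Its cells were 2.86% of the kept control and 4.5% of the kept mutant cells, and whether the same kind of cells fell into it from both libraries was not tested.

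Retinal progenitor-like cells, 1613 in the control and 1675 in the mutant, had low *Bmp4* in both libraries. The control gave 75 UMIs, 3.89 CPM (3.06 to 4.87), and the mutant 31, 1.63 CPM (1.11 to 2.31). The log2 ratio was −1.23 (−1.91 to −0.63), against 0.924% of 12879 genes at least 2-fold lower. Over the 10 alternatives run it stayed below −1, between −2.0 and −1.19. Of the 5 clusters in this class, cluster 4 held 44 of the control UMIs (5.76 CPM, 4.19 to 7.73) and 9 of the mutant ones (1.25 CPM, 0.572 to 2.37), and cluster 2 held 20 and 16 (3.33 and 2.48 CPM). Cluster 19 had 4 control UMIs and 0 mutant ones.

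*Bmp4* was also set against position in the retina, with *Tbx5* as a dorsal and *Vax2* as a ventral transcription factor. In the control, 42 progenitor-like cells had a *Tbx5* UMI and no *Vax2* UMI, and 795 had a *Vax2* UMI and no *Tbx5* UMI, with medians of 17685 and 14985 UMIs. *Bmp4* had 19 UMIs in the *Tbx5* cells, 24.4 CPM (14.7 to 38.1), and 26 in the *Vax2* cells, 2.21 CPM (1.45 to 3.24). The log2 ratio of dorsal over ventral was 3.48 (2.53 to 4.37), and the intervals lie far apart. In the mutant, 54 and 746 such cells held 8 and 3 *Bmp4* UMIs, 9.63 CPM (4.16 to 19.0) and 0.281 CPM (0.0580 to 0.821), too few for a ratio by the rule used here, and 1 cell gave 50% of the 8. The direction was the same in both libraries, and both levels were lower in the mutant, although the intervals of the *Tbx5* cells overlap between the libraries. Cells with neither UMI, 769 in the control, had a median of 5647 UMIs, so this split took the deeper cells.

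For *Tgfb2*, *Gdf11* and *Bmp7* the interval of the same ratio spanned 0 in each library. *Tgfb2* was at 78.3 and 63.9 CPM in dorsal and ventral control cells (log2 ratio 0.31, −0.11 to 0.67) and at 78.2 and 72.3 CPM in the mutant (0.13, −0.27 to 0.48). *Gdf11* was at 37.2 and 24.9 CPM in the control, a log2 ratio of 0.62 with an interval from −0.025 to 1.13. *Tgfb3* and *Nbl1* had at most 4 UMIs in the dorsal cells of each library, and their ratios could not be separated from 0. *Bmp2*, *Tgfb1*, *Wfikkn2* and *Grem1* had fewer than 20 UMIs in these cells of each library and were not compared. *Bmp7* was at 7.70 and 12.3 CPM in the control (−0.46, −2.14 to 0.49) and 3.61 and 10.4 CPM in the mutant (−1.12, −3.83 to 0.059).

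**Figure D4:**
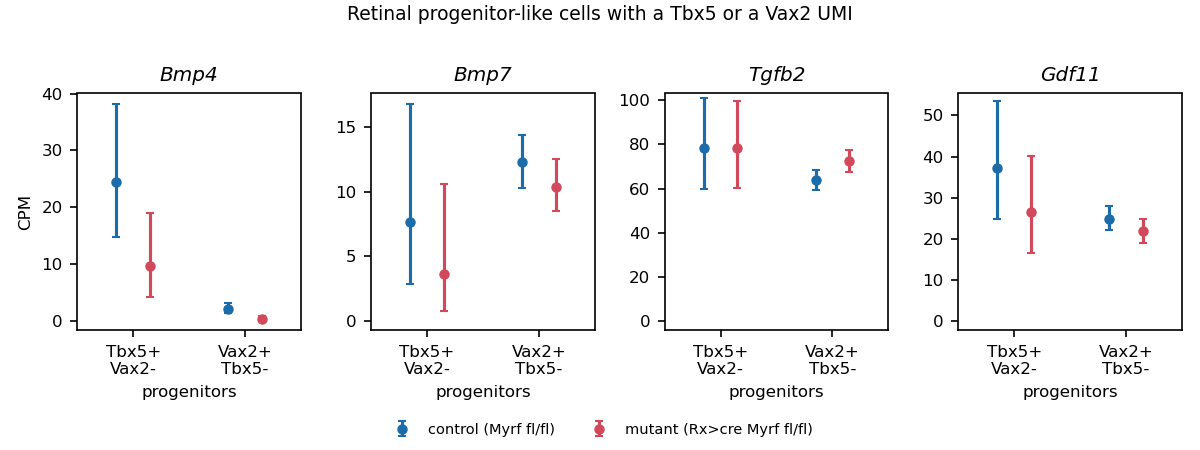
Levels (CPM, 95% Poisson intervals) of 4 genes in retinal progenitor-like cells with a *Tbx5* UMI and no *Vax2* UMI and in those with a *Vax2* UMI and no *Tbx5* UMI, control in blue and mutant in red. *Bmp4* is at 24.4 CPM in *Tbx5* and 2.21 CPM in *Vax2* control cells, while the intervals of *Tgfb2* overlap.

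*Bmp7* led in RPE-like cells of both libraries, with intervals that overlap those of the next class. Surface ectoderm-like cells followed in the control at 48.8 CPM (33.1 to 69.2), then mesenchyme cluster 9 at 41.2 CPM (34.0 to 49.6) and cluster 16 at 39.6 CPM (31.2 to 49.6), with overlapping intervals. In the mutant, cluster 9 was at 55.3 CPM (47.6 to 63.8), higher by 0.42 (0.078 to 0.77) on the log2 scale. Ganglion cell-like cells had 5 and 16 *Bmp7* UMIs, 1.42 and 3.49 CPM, a log2 ratio of 1.13 whose interval (−0.21 to 3.11) spans 0, where 0.739% of genes were at least 2-fold higher. Its level in retinal progenitor-like cells was 8.45 CPM (7.20 to 9.85) in the control and 6.99 CPM (5.85 to 8.28) in the mutant. The genes most like it were *Thbs1* (r = 0.89), *Dbp* (0.89) and *Echdc2* (0.88).

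Of the 3 TGF-beta ligands, *Tgfb2* and *Tgfb3* were both highest in mesenchyme clusters in the control, and *Tgfb1* in other classes. *Tgfb1* (chromosome 7, 25687002 to 25705077, plus strand) led in vessels and macrophages, at 251 CPM (228 to 275) in endothelium-like and 234 CPM (212 to 257) in macrophage-like control cells, which do not differ beyond counting error. Amacrine or horizontal precursor-like cells came next at 18.1 CPM (9.03 to 32.4). In the mutant the leading levels were 241 and 220.1 CPM, with log2 ratios of −0.057 and −0.087, and none of the 12 ratios of *Tgfb1* reached 2-fold. *Tgfb1* was measurable in neurogenic retinal precursor-like cells, at 8.38 CPM (5.37 to 12.5) and 12.5 CPM (8.97 to 16.8), where retinal progenitor-like cells had 0.726 and 0.420 CPM. Its pattern was most like those of *Abi3* (r = 0.91), *Klhl6* (0.90) and *Hhex* (0.90).

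*Tgfb2* (chromosome 1, 186622792 to 186705989, minus strand) was spread over mesenchyme and retina. It was highest in mesenchyme clusters 11 and 12 of the control, at 306 CPM (286 to 327) and 274 CPM (251 to 298), and the other 5 clusters lay between 73.0 and 162 CPM. Retinal progenitor-like cells held 24.5% of all its control UMIs at 66.2 CPM (62.7 to 70.0), and muscle precursor-like cells stood at 136 CPM (108 to 168). In the mutant, muscle precursor-like cells were at 90.3 CPM (69.3 to 116), a *Tgfb2* ratio of −0.58 (−1.08 to −0.091), the one below 0 by its whole interval. Of the 19 ratios of *Tgfb2*, 15 were above 0, with a median of 0.18. In mesenchyme cluster 11 the mutant level was 375 CPM (354 to 398), for a log2 ratio of 0.30 (0.17 to 0.43), and in cluster 9 it was 139.7 and 183 CPM, a log2 ratio of 0.39 (0.20 to 0.58). Schwann or neural crest glia-like cells, 22 and 38 in number, had 8 and 37 of its UMIs (26.4 and 65.4 CPM), a log2 ratio of 1.17 (0.18 to 2.62), with 2.28% of genes at least 2-fold higher. A single cell gave 50% of the control count there. The genes most like *Tgfb2* were *Pkd2* (r = 0.94), *Tmem263* (0.94) and *P3h3* (0.93).

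*Tgfb3* (chromosome 12, 86056745 to 86079041, minus strand) reached at most 42.1 CPM in any class, and 74.7% of its control UMIs lay in mesenchyme. Cluster 12 led in the control at 34.4 CPM (26.8 to 43.7) and stood in the mutant at 26.8 CPM (21.5 to 33.1). Amacrine or horizontal precursor-like cells, 55 and 66 in number, came next in the control and led in the mutant, with overlapping intervals each time, at 19.7 CPM (10.2 to 34.5) from 12 UMIs in the control and 42.1 CPM (28.2 to 60.4) from 29 UMIs in the mutant. The log2 ratio of 1.03 had an interval from 0.078 to 2.20, in a class where 1.89% of genes were at least 2-fold higher. *Lhfp*, *Arhgap24* and *Six2* were most like *Tgfb3* (r = 0.85 each).

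*Gdf11*, a ligand of the activin branch (chromosome 10, 128882295 to 128891718, minus strand), led in young neurons. It was highest in ganglion cell-like cells at control and mutant levels of 84.2 CPM (74.9 to 94.3) and 63.3 CPM (56.2 to 71.0), from 297 and 290 UMIs. The intervals did not overlap, and the log2 ratio was −0.41 (−0.65 to −0.17). Photoreceptor precursor-like cells followed at 65.0 CPM (41.2 to 97.5) and 44.4 CPM (24.3 to 74.6), and retinal progenitor-like cells stood at 25.7 and 23.4 CPM. Of its 15 ratios, 11 were below 0. The one past 2-fold was in Schwann or neural crest glia-like cells, from 15 and 12 UMIs, with a log2 ratio of −1.20 (−2.45 to −0.031), against 3.02% of genes at least 2-fold lower there. *Pcbp4* (r = 0.95), *Meis3* (0.93) and *Mapk8ip1* (0.92) were most like *Gdf11*.

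*Nbl1*, a secreted antagonist of BMPs also known as Dan (chromosome 4, 139082284 to 139092993, minus strand), belonged to the mesenchyme, which held 91.0% of its control and 94.0% of its mutant UMIs. *Nbl1* was itself the leading gene of cluster 1, before *Twist1* and *Tfap2b*, although it was kept out of the clustering. That cluster alone held 53.8% and 59.5%, at 413 CPM (396 to 431) and 399 CPM (384 to 414). Cluster 18 came next in the control at 218 CPM (195 to 242) from 346 UMIs, and stood at 102 CPM (87.9 to 118) from 179 UMIs in the mutant. The log2 ratio was −1.09 (−1.36 to −0.83), with 2.22% of genes in that cluster at least 2-fold lower, and it was −0.80 after thinning to 3000 UMIs. *Bmp4*, which had its highest level in the same cluster, differed by −0.094 (−0.42 to 0.23).

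Surface ectoderm-like cells had 126 and 60 *Nbl1* UMIs, 198 CPM (165 to 236) and 102 CPM (77.9 to 131), a log2 ratio of −0.94 (−1.42 to −0.50). Their medians were 3724 and 1694 UMIs per cell, and the part of that difference in the ratio was not tested. Ganglion cell-like cells had 35 and 21 UMIs, 9.92 and 4.59 CPM, a log2 ratio of −1.09 (−1.97 to −0.29), with 0.929% of genes at least 2-fold lower. That ratio was −0.14 with doublets kept and the cells clustered anew. The genes most like it were *Egfl6* (r = 0.92), *Sema3a* (0.89) and *Cdo1* (0.88).

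*Grem1* was held to few clusters. Mesenchyme clusters 12, 11 and 6 were at 178, 50.2 and 19.6 CPM in the control and at 261, 59.8 and 20.9 CPM in the mutant, in the same order and with intervals apart from each other. Cluster 12, of which *Grem1* was 1 of the 10 leading genes, held 52.2% of its control and 65.8% of its mutant UMIs. Cluster 16, with *Spp1* and *Mgp* among its leading genes, had 0 *Grem1* UMIs in both libraries, which allows levels of up to 1.56 and 1.48 CPM. Cluster 9 had 13 and 34 UMIs, 4.74 and 10.2 CPM, a log2 ratio of 1.03 (0.14 to 2.15), with 0.885% of genes at least 2-fold higher. Of the 13 control UMIs, 38.5% came from 1 cell. *Mia* (r = 0.91), *Meox1* (0.91) and *Adamts6* (0.90) were most like *Grem1*. No likeness was computed for *Wfikkn2*, which had 85 control and 63 mutant UMIs in all, under the minimum of 200. Summed over all mesenchyme clusters it had 31 and 41 UMIs, 1.44 and 1.54 CPM (log2 ratio 0.081, −0.62 to 0.81). Outside RPE-like cells its highest control level was 6.30 CPM (3.02 to 11.6), from 10 UMIs in mesenchyme cluster 18. That cluster had 2 mutant UMIs, 1.14 CPM (0.138 to 4.13), and mesenchyme cluster 9 had 3 and 12, 1.09 and 3.58 CPM. Neither cluster reached 20 UMIs, so no ratio was taken. The highest mutant level of *Wfikkn2* was the 5.35 CPM (2.31 to 10.5) of the RPE-like cells, an interval that overlaps that of cluster 9 (1.85 to 6.26).

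A list of 90 other genes of the pathway was followed in the RPE-like cells by role. Of these, 42 had at least 20 UMIs, 3 were at least 2-fold lower in the mutant and 0 were at least 2-fold higher, against 3.17% and 1.85% of all genes. Their median log2 ratio was −0.10, where that of all genes was −0.035. Among 20 genes listed as other ligands, *Bmp1* was the one with enough UMIs, at 22.2 and 22.1 CPM. It is a protease that frees BMPs from Chordin and not itself a ligand of this family, so no other ligand could be compared. The BMP receptors with most UMIs had intervals that span 0, *Bmpr1a* at 37.6 and 32.1 CPM (−0.22, −0.78 to 0.31) and *Bmpr2* at 25.5 and 16.7 CPM (−0.58, −1.36 to 0.10). Of the activin and TGF-beta receptors, *Acvr2b* was at 66.5 and 84.2 CPM (0.34, −0.019 to 0.70) and *Tgfbr1* at 39.0 and 28.7 CPM (−0.43, −1.01 to 0.11). Among 11 of 12 Smads and their cofactors with enough UMIs, none was past 2-fold and the median was −0.083. *Smad4*, the common partner of the receptor Smads, was at 46.3 and 43.5 CPM (−0.083, −0.57 to 0.38), and *Skil*, a corepressor, at 55.9 and 51.5 CPM (−0.11, −0.55 to 0.31).

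Antagonists outside the members differed from one another. *Sostdc1*, a BMP and Wnt antagonist, had 417 and 312 UMIs, 201 and 209 CPM (0.055, −0.16 to 0.27), and *Fstl1* was at 143 and 145 CPM (0.021, −0.24 to 0.28). *Crim1*, a membrane protein that binds BMPs, was lower, with 89 and 26 UMIs, 42.9 and 17.4 CPM and a log2 ratio of −1.26 (−1.99 to −0.66). *Fst* was lower too, at 26.5 and 14.7 CPM (−0.81, −1.63 to −0.11), and *Bambi* was higher, at 10.6 and 19.4 CPM (0.86, 0.021 to 1.74). Of the 8 such antagonists with enough UMIs, 4 ratios were below 0 and 4 above. Genes of TGF-beta latency and activation had a median of 0.21, with 3 of 7 ratios below 0 and 4 above. *Fbn2* was at 88.2 and 102 CPM (0.21, −0.12 to 0.52) and *Itgb5* at 53.5 and 36.8 CPM (−0.53, −1.03 to −0.062). *Thbs1* was at 33.7 and 48.8 CPM (0.53, 0.039 to 1.03) and *Fbn1* at 44.3 and 29.4 CPM (−0.58, −1.14 to −0.059).

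Known targets had the lowest median of the roles, −0.45 over 7 of 15 genes with enough UMIs. Of these 7 ratios, 5 were below 0 and 2 above, and the targets named below are all among the lower ones. The 2 above 0 lay at 0.68 and 0.47, with intervals that span 0. The remaining lower target was at −0.37, also with an interval that spans 0. *Id3* and *Id2*, inhibitors of bHLH factors that BMPs induce in many cells, were at 665 and 487 CPM (−0.45, −0.58 to −0.32) and 109 and 66.2 CPM (−0.71, −1.07 to −0.37). *Id1* was counted 61 and 18 times, 29.4 and 12.0 CPM (−1.23, −2.14 to −0.51), and 1 cell gave 44.4% of its mutant count. *Tbx2*, a T-box factor of the dorsal eye, was counted 29 and 5 times, 14.0 and 3.34 CPM (−1.85, −3.79 to −0.68). The list was chosen with earlier results on these cells known, so its counts are a description.

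**Figure D5:**
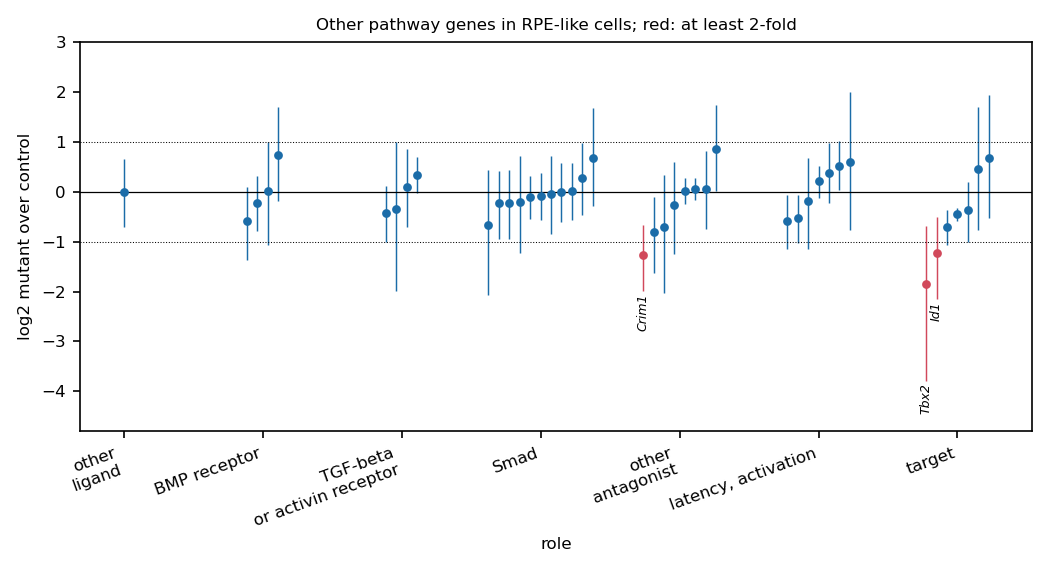
Log2 ratio of mutant over control in RPE-like cells for the 42 other pathway genes with at least 20 UMIs, by role and sorted within it, with 95% conditional binomial intervals. *Crim1*, *Id1* and *Tbx2* (red) lie past 2-fold on the lower side, at −1.26, −1.23 and −1.85, and no gene lies past it on the higher side.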

How the data were processed

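The 2 single-cell libraries were analysed, 1 per genotype. The deposited values are UMI counts per gene and barcode, made by the authors with Cell Ranger, with no normalization. The submitters' processing notes name Cell Ranger 7.1.0, Seurat 4.1.1 and mm10, while the matrix headers give software version 3.0.0, so whether intronic reads were counted is not given in the sources used here. Barcodes with under 200 genes (5 and 9), or over 15% mitochondrial UMIs (515 and 371), and 68 and 65 doublets called by Scrublet (scanpy 1.11.5, expected rate 5%) were left out. Cells were integrated and clustered in Seurat 5.3.0 (R 4.3.3) with 1973 of 2000 variable features, 30 principal components and resolution 0.8. The members, the pathway list, *Myrf*, *Tbx5* and *Vax2* were kept out of the features. This gave 29 clusters. A cluster was named where at least 3 markers of a fixed list were past 2-fold and their mean log2 fold was at least 0.5, limits set after the clusters were seen. No cluster was named as ciliary margin, optic stalk, lens, pericyte or chondrogenic, and 3 stayed unnamed. Other clustering or names could move cells between classes. UMIs were summed per class and library and compared in Python 3.11.15 with scipy 1.17.1, and the code was tested on simulated counts. Coordinates are from GENCODE on GRCm38, the same assembly as mm10. The rule for named genes took the 10 members, pathway genes past 2-fold in RPE-like cells and the 2 with most UMIs per role there, and the 3 genes most alike to each member. Pathway genes whose interval excludes 0 in RPE-like cells were named as well. The members and lists were chosen with earlier results of these data known. The e15.5 and P0 samples were not analysed here. UMIs are counted molecules, but intervals and floors cover counting error only, at 95%, with a floor of 3 counts.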

Additional observations from a re-analysis of the deposited data

Results flagged for a closer look

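*Bmp2* had ratios of opposite sign in different classes. It was at least 2-fold lower in mutant RPE-like cells, −1.47 on the log2 scale, and at least 2-fold higher in mutant endothelium-like cells (1.76), macrophage-like cells (1.12) and cells of mesenchyme cluster 11 (1.35). With 1 library per genotype the difference between these classes was not tested. The endothelium-like value stayed between 1.71 and 1.80 over 10 alternatives, the macrophage-like value between 0.85 and 1.23 over 10, and the value of mesenchyme cluster 11 between 1.22 and 1.56 over the 4 that could be run. Thinning gave no *Bmp2* ratio in these classes, so the ranges leave it out. In thinned cells, the control and mutant shares with a *Bmp2* UMI were 2.08% and 2.94% in endothelium-like cells. They were 3.9% and 6.1% in macrophage-like cells and 0.847% and 1.92% in mesenchyme cluster 11. The intervals overlapped each time, so no difference was detectable at that depth, as in the RPE-like cells. In the RPE-like cells *Bmp2* lay between −1.51 and −1.01 over the 10 alternatives that gave a ratio of sums, and the difference of the means of log values per cell, which is on another scale, was −0.12.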

How the results depend on the processing

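The number of members past 2-fold in RPE-like cells, 2 of 6, was 0 with an upper limit of 2000 UMIs per cell (0 members compared), 0 with the mitochondrial limit of 5% (4 compared) and 0 after thinning to 3000 UMIs (4 compared). In these 3 settings *Bmp2* and *Wfikkn2* had fewer than 20 UMIs. With the mitochondrial limit of 5% the control level of *Wfikkn2* was 6.79 CPM in place of 21.7 CPM. It was 4 of 9 with RPE-like cells chosen by a rule per cell, where *Bmp2* (−1.01) and *Wfikkn2* (−1.26) were joined by *Nbl1* (8.47 and 24.0 CPM) and *Grem1* (2.82 and 9.11 CPM), both higher in the mutant. The cause was not tested. The share of all genes past 2-fold, 5.03%, was 2.65% at a minimum of 50 UMIs and stayed within 1.5 times elsewhere. *Bmp2*, *Bmp4* and *Wfikkn2* kept their sign in RPE-like cells in every alternative with a value, the added one without shared barcodes, chosen after seeing the data, included. *Bmp7* changed sign in 3, *Tgfb2* in 1 and *Gdf11* in 1. In other classes no ratio past 2-fold changed sign, mesenchyme clusters being compared only where the cells were not clustered anew. Among these ratios, thinning to 3000 UMIs gave a value only for *Bmp4* in mesenchyme cluster 12 and *Nbl1* in cluster 18. *Bmp2* in macrophage-like cells (0.85 with the mitochondrial limit of 5%), *Bmp7* in ganglion cell-like cells (0.90 with doublets kept), *Nbl1* in ganglion cell-like cells (−0.14 likewise) and *Nbl1* in mesenchyme cluster 18 (−0.80 thinned) dropped under 2-fold in 1 setting each. No paired analysis was possible because the 2 genotypes have 1 library each. Differences of the means of log values per cell, on another scale, were −0.12 for *Bmp2*, −0.075 for *Wfikkn2*, −0.092 for *Bmp4* and 0.045 for *Tgfb2*. Depth limits the RPE-like values: sums under 20 UMIs gave no ratio.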

Other observations

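Cells of the 3 unnamed clusters, 739 in the control and 653 in the mutant with medians of 766 and 786 UMIs, held members too. These clusters differ from one another, with *Cryaa* and *Cryba1* among the leading genes of cluster 0 and *Pf4* and *Gp9* among those of cluster 28. *Tgfb1* was at 29.0 CPM (18.9 to 42.4) and 43.2 CPM (31.0 to 58.6) in them together, and 1 cell gave 39.0% of its mutant UMIs. *Nbl1* was at 57.9 and 63.2 CPM, *Tgfb2* at 92.4 and 106 CPM and *Bmp2* at 8.91 and 8.42 CPM. *Wfikkn2* was counted 3 and 0 times.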
